A study of Mus musculus with 30 samples.

Results

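The levels of 9 genes that encode secreted antagonists of bone morphogenetic proteins (BMPs), namely Grem1, Nbl1, Chrd, Chrdl1, Bmper, Twsg1, Nog, Fst and Fstl1, were read from bulk RNA sequencing of sorted mouse gut stroma. They were chosen by name, for what their proteins are known to do, and are 9 of the 32386 gene symbols matched in the deposited transcript tables. The cells came from the lamina propria of untreated C57BL6/Nrj mice aged 8 to 10 weeks, after removal of dead, lineage-positive, CD31+, BP3+, EpCAM+ and NCAMhi cells. There were 10 populations with 3 libraries each, 30 in all, with 2245052 to 19096945 estimated counts per library and a median of 9601683. In the small intestine (SI) the gates were PDGFRa-ESAM-1+PDPN- for pericytes, PDGFRa-ESAM-1+PDPN+ for smooth muscle cells (SMC), ESAM-1-PDGFRahiCD34- for PDGFRahi fibroblasts (FB), ESAM-1-PDGFRaintCD34- for Fgfr2+ FB and ESAM-1-PDGFRaintCD34+ for CD34+ FB, which hold Igfbp5+ and CD81+ FB together. In the colon they were PDGFRa-ESAM-1+PDPN- for pericytes, ESAM-1-PDPN+CD34- for PDGFRahi FB, ESAM-1-PDPNhiCD34+CD90- for Fgfr2+ FB, ESAM-1-CD34+PDPNhiCD90+ for CD90+ FB and ESAM-1-PDPNintCD34+CD90- for CD81+ FB. The labels name 3 individual mice, and the study describes sorting both tissues from shared animals, so populations can share mice. The study also describes the replicates as 3 independent sorts, so a replicate number may mark a sort that populations share. No label ties a replicate number to a mouse, the fit had no block for the animal, and the p-values measure the spread between these samples.

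BMPs are secreted ligands of the TGF-beta family that bind paired type I and type II receptors and act through SMAD proteins on targets such as the Id genes. The antagonists bind the ligands outside the cell and keep them from their receptors. In the gut, BMP signaling is known to be high toward the villus or the top of the crypt and to favor differentiation, while antagonists made by stroma near the crypt base are known to protect the stem cell niche.

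The gates were checked against their marker genes. Levels are counts scaled to the same library total (CPM), adjusted between libraries by the trimmed mean of M values (TMM), and each ± is an SD over 3 libraries. Pdgfra was highest in SI PDGFRahi FB (6518 ± 324 CPM) and colon PDGFRahi FB (2444 ± 88.0 CPM), and Fgfr2 was highest in SI Fgfr2+ FB (1646 ± 291 CPM). In the colon, Fgfr2 was 473 ± 26.4 CPM in Fgfr2+ FB and 366 ± 64.995 CPM in CD90+ FB, and Thy1, which encodes CD90, averaged 26.6 and 197 CPM there. The libraries of these 2 gates did not overlap in either gene, but 0 of 17564 genes, these included, were called between them. Cd34 was highest in colon CD81+ FB (1067 ± 235 CPM) and Cd81 was highest there too (373 ± 92.7 CPM). Of 6 pericyte markers, 6 were called higher in pericytes than in the FB of each tissue, and Notch3 averaged 6172 CPM in SI pericytes and 3414 CPM in colon pericytes. Not all were confined to pericytes: Kcnj8 averaged 569 CPM in SI PDGFRahi FB against 275 CPM in SI pericytes, Abcc9 averaged 1784 against 2134 CPM, and Rgs5 averaged 3801 CPM in SI CD34+ FB and 5054 CPM in SI SMC against 31731 CPM in SI pericytes. Cnn1, a smooth muscle gene, averaged 1014 CPM in SI SMC. The summed level of 5 smooth muscle markers averaged 19375 CPM in SI SMC, 10661 CPM in colon pericytes and 3541 CPM in SI pericytes. No SMC gate was sorted in the colon. The labels and markers parted in Thy1: its mean was also 98.8 CPM in colon CD81+ FB, a gate that is CD90-, and 221 CPM in SI pericytes. Epcam had 0 counts in 28 of the 30 libraries.

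Some libraries stood apart. SI PDGFRahi FB replicate 3 had 14.8% of its length-scaled transcript abundance (TPM) in its most abundant transcript, against 49.2% and 51.1% in replicates 1 and 2, and its Kit level was 43.4 CPM against 7.10 and 8.52 CPM. SI SMC replicate 3 had 23.8% in its most abundant transcript against 46.3% and 34.6%, and Pecam1, an endothelial gene, at 165 CPM against 38.9 and 40.1 CPM. It also had the highest summed level of 5 fibroblast markers, 12348 CPM against 8201 and 7406 CPM. That sum averaged 9318 CPM in SI SMC and 12564 to 67980 CPM in the SI FB populations. Its part in the SMC results was not tested. Colon CD81+ FB replicate 1 had 20.7% in its most abundant transcript against 47.6% and 39.3%. SI Fgfr2+ FB replicate 3 was the smallest library, with 2245052 estimated counts, and held Notch3 at 77.4 CPM against 6.42 and 12.2 CPM. In SI pericytes the summed level of 6 immune markers was 431 CPM in replicate 1 against 80.7 and 72.3 CPM. Replicates were most alike in SI CD34+ FB, where correlations of log2 CPM over genes were 0.964 to 0.973, and least alike in SI pericytes, where they were 0.722 to 0.807; genes are not independent replicates.

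All 9 genes passed the filter on low counts (at least 6 counts in at least 3 libraries), as did 17564 genes in total. In 1 edgeR quasi-likelihood model of the 30 libraries, an F test over the 10 population means passed a Benjamini-Hochberg adjusted p of 0.05 for 9 of the 9 genes and for 26.4% of all genes tested. DESeq2 called 8 of them. In comparisons of populations, a call needed both an adjusted p under 0.05 and a difference of more than 1.5 on the log2 scale in either direction. Because RNA was measured in bulk, fewer cells of a type and less RNA per cell cannot be told apart. Counting intervals cover counting error only, since the reads come from amplified cDNA without molecular identifiers.

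**Figure D1:**
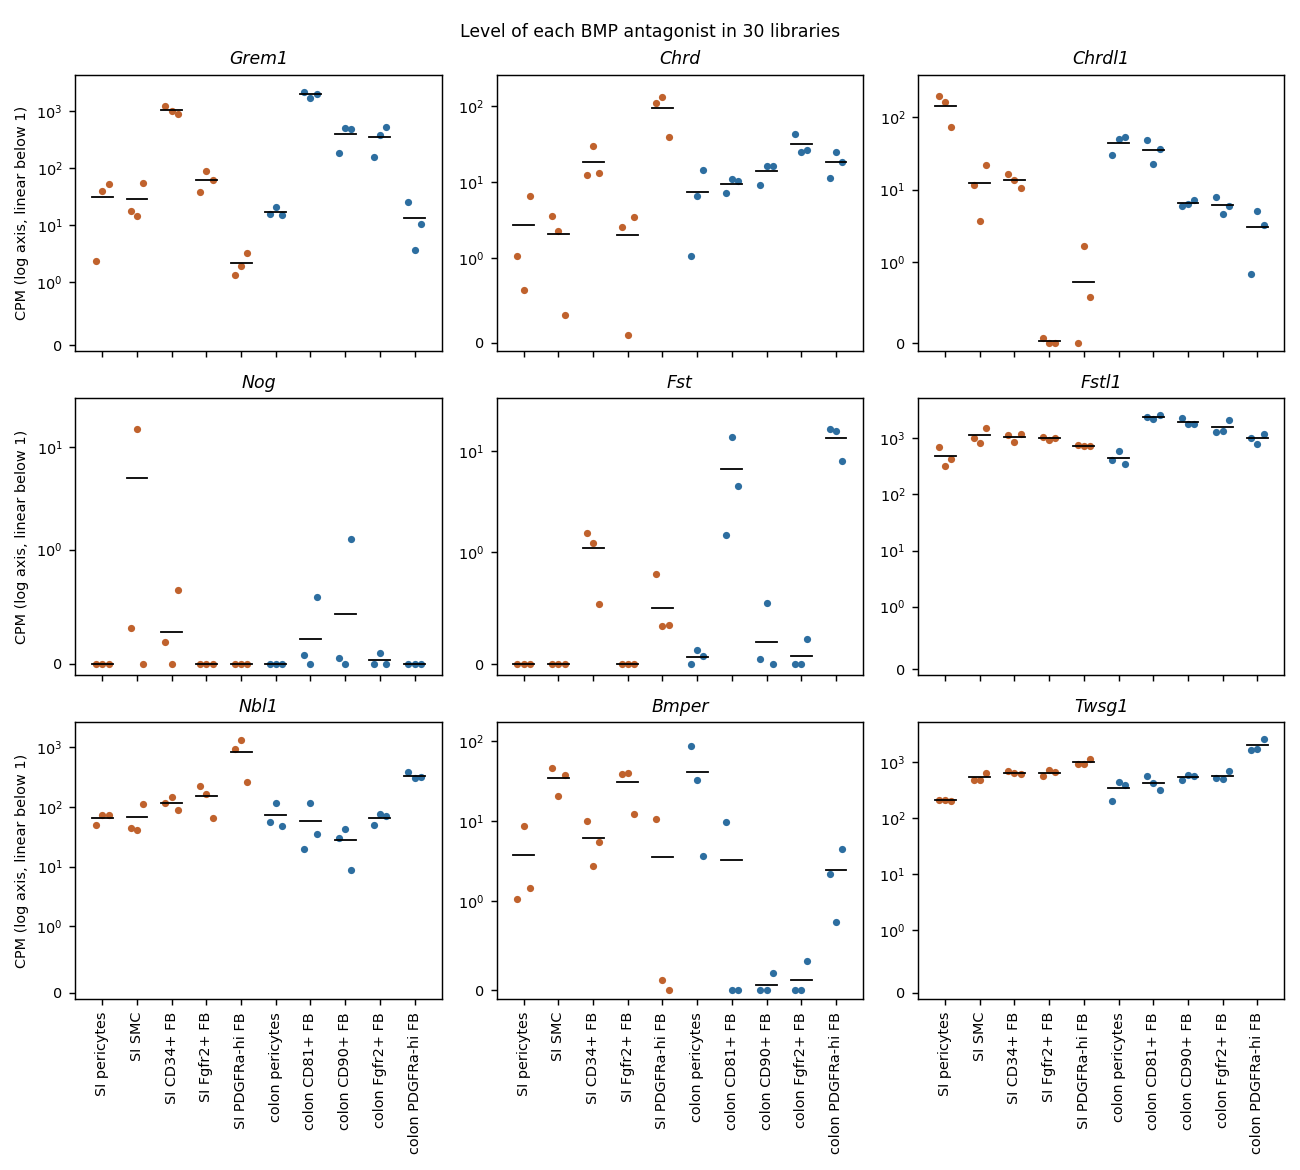
Level of each of the 9 antagonist genes in the 10 sorted populations. Each point is 1 library (orange, small intestine; blue, colon), the black line is the mean of 3 libraries, and the vertical axis is CPM on a log scale that is linear below 1; Grem1 runs from 1.34 CPM in an SI PDGFRahi FB library to 2199 CPM in a colon CD81+ FB library.

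Grem1 encodes gremlin 1, a member of the DAN family that binds BMP2, BMP4 and BMP7. In colon CD81+ FB it stood at 2199, 1721 and 2015 CPM, and in SI CD34+ FB at 1252, 999 and 885 CPM. In SI PDGFRahi FB it stood at 1.34, 1.92 and 3.22 CPM, and in colon PDGFRahi FB at 25.1, 3.70 and 10.3 CPM. The CD34+ and CD81+ libraries were all far above the PDGFRahi libraries of their tissue, without overlap. Colon CD90+ FB had 186, 509 and 486 CPM, and colon Fgfr2+ FB had 155, 388 and 516 CPM. SI Fgfr2+ FB had 37.7, 88.2 and 61.2 CPM. The CD90+ and colon Fgfr2+ libraries overlapped each other, lay below colon CD81+ FB and SI CD34+ FB, and lay above SI Fgfr2+ FB. Below these, the means were 31.4 ± 26.1 CPM in SI pericytes, 29.0 ± 22.3 CPM in SI SMC and 16.8 ± 3.02 CPM in colon pericytes, and neighbors from SI Fgfr2+ FB down to colon PDGFRahi FB overlapped.

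Against PDGFRahi FB, Grem1 was called in each of the 5 other FB populations within its tissue. In SI CD34+ FB the log2 fold change was 8.91 (SE 0.94, edgeR adjusted p = 1.59e-07), and in SI Fgfr2+ FB it was 4.85 (SE 0.80, adjusted p = 0.000304). In the colon it was 7.24 for CD81+ FB (SE 0.87, adjusted p = 2.05e-06), 4.91 for CD90+ FB (SE 0.78, adjusted p = 0.000248) and 4.76 for Fgfr2+ FB (SE 0.78, adjusted p = 0.000468). Between SI CD34+ FB and SI Fgfr2+ FB it was 4.07 (SE 0.75, adjusted p = 0.00250). The comparisons against PDGFRahi FB share the PDGFRahi libraries of a tissue. Each of the 6 kept its call with any 1 library left out; without SI PDGFRahi FB replicate 3 the SI values were 9.29 and 5.22. Colon pericytes were lower than the colon FB, taken as the mean of the log2 levels of the 4 populations, by -3.86 on the log2 scale (SE 0.69, adjusted p = 0.000130), while their libraries overlapped those of colon PDGFRahi FB. The SI pericytes had -0.72 (SE 0.57, adjusted p = 0.408) against the 3 SI FB populations, whose libraries ran from 1.34 to 1252 CPM.

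Markers of other cells moved in the same 5 comparisons against PDGFRahi FB. Of 5 endothelial markers, 1 was called higher than in PDGFRahi FB, Tek, by 4.61 in colon CD81+ FB (307 against 12.6 CPM) and by 4.71 in SI CD34+ FB (46.8 against 1.75 CPM). The sum of the 5, with Tek the most abundant, was 376, 373 and 320 CPM in colon CD81+ FB, the highest mean of the 10 populations, and 100, 103 and 76.4 CPM in SI CD34+ FB, and 0 of the 5 were at 0 in all libraries of either; Cdh5 averaged 0.0891 and 0.351 CPM. The other 3 FB populations had 0 of 5 called. Of 5 smooth muscle markers, Myh11 and Acta2 were called lower in each of the 5 comparisons and Actg2 in colon CD81+ FB, while Des was called higher in colon CD90+ FB (1.90) and colon Fgfr2+ FB (2.27). Their summed level averaged 2615 CPM in SI PDGFRahi FB against 123 CPM in SI CD34+ FB and 667 CPM in SI Fgfr2+ FB, and 1497 CPM in colon PDGFRahi FB against 64.1 CPM in CD81+, 129 CPM in CD90+ and 286 CPM in Fgfr2+ FB. Of 6 pericyte markers, Rgs5 was called higher in SI CD34+ FB (3.87), SI Fgfr2+ FB (2.71) and colon Fgfr2+ FB (3.04) and Notch3 in SI Fgfr2+ FB (3.02), while Abcc9 was called lower in SI CD34+ FB (-6.26), SI Fgfr2+ FB (-5.44), colon CD90+ FB (-2.199) and colon Fgfr2+ FB (-1.695), Kcnj8 in SI CD34+ FB (-9.01) and SI Fgfr2+ FB (-4.74), and Cspg4 in SI CD34+ FB (-2.38) and colon CD81+ FB (-2.81). Ano1 was lower in colon CD81+, CD90+ and Fgfr2+ FB (-5.99, -6.95 and -6.21), and Cxcl13, 1 of 2 lymphoid stroma markers tested, was higher in SI CD34+ FB (5.54) and SI Fgfr2+ FB (5.37). Of the immune, epithelial, glial and neuronal, and mesothelial markers 0 were called. Between SI CD34+ FB and SI Fgfr2+ FB, Myh11 (-2.50), Acta2 (-2.59), Des (-2.15) and Kcnj8 (-4.28) were called lower in CD34+ FB. The part of these markers in the Grem1 results, or in those of the other antagonists in these comparisons, was not tested.

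The step from colon CD81+ FB to the other colon CD34+ subsets was not called by edgeR, though no library overlapped. It was 2.33 on the log2 scale over CD90+ FB (SE 0.69, adjusted p = 0.169) and 2.49 over Fgfr2+ FB (SE 0.70, adjusted p = 0.0925). DESeq2 called both, at 2.33 and 2.48, and so did edgeR with no filter on low counts, at 2.34 and 2.51; the second was also called in a fit of only the populations compared (2.50). The tissues were compared between gates of the same name, whose sorting markers differ. The colon PDGFRahi gate did not use PDGFRa, and the Fgfr2+ gate was CD34- in the SI and CD34+ in the colon. In SI Fgfr2+ FB, Cd34 (-2.52), Thy1 (-7.38) and Igfbp5 (-2.25) were called lower than in colon Fgfr2+ FB, and Fgfr2 (1.80) higher. Tissue and gate thus cannot be told apart. Grem1 was lower in SI than in colon by -2.59 in PDGFRahi FB (SE 0.74, adjusted p = 0.106) and by -2.50 in Fgfr2+ FB (SE 0.70, adjusted p = 0.0690), with no overlap and no call. DESeq2 called both of these as well, at -2.64 and -2.44, as did edgeR without the filter, at -2.63 and -2.46. The difference between these tissue effects was 0.09 (SE 0.91, adjusted p = 1.00).

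Nbl1, which encodes DAN, the protein that gave gremlin's family its name, was highest in the PDGFRahi FB of each tissue, where Grem1 was lowest among the FB. In SI PDGFRahi FB it stood at 933, 1295 and 262 CPM, and in colon PDGFRahi FB at 383, 299 and 315 CPM. SI Fgfr2+ FB had 221, 161 and 64.7 CPM, and SI CD34+ FB had 116, 147 and 89.99 CPM. Every PDGFRahi library was above every other FB library of its tissue, and the low SI PDGFRahi value came from replicate 3, the library that stood apart. In the colon, CD81+ FB had 19.3, 118 and 35.5 CPM, CD90+ FB had 30.5, 42.5 and 8.84 CPM, and Fgfr2+ FB had 48.8, 76.1 and 70.8 CPM. These 3 populations overlapped in part and neighbors in the order below colon PDGFRahi FB did not differ beyond their spread.

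Nbl1 was lower than in PDGFRahi FB by a log2 fold change of -2.82 in SI CD34+ FB (SE 0.64, edgeR adjusted p = 0.00705), -2.48 in SI Fgfr2+ FB (SE 0.63, adjusted p = 0.0249), -2.53 in colon CD81+ FB (SE 0.63, adjusted p = 0.0145) and -3.61 in colon CD90+ FB (SE 0.66, adjusted p = 0.00146). Colon Fgfr2+ FB missed the call at -2.35 (SE 0.63, adjusted p = 0.0554), which DESeq2 (-2.38), RLE size factors, no filter, a stricter filter, a block for the replicate number and a fit of only the populations compared each made, at -2.38 to -2.36. Of these calls, only that for colon CD90+ FB was kept with each library left out. The SI CD34+ call was lost without SI CD34+ FB replicate 3 (-2.66) or SI PDGFRahi FB replicate 2 (-2.34). The SI Fgfr2+ call was lost without SI PDGFRahi FB replicate 1 (-2.39) or 2 (-2.00), or SI Fgfr2+ FB replicate 2 (-2.54) or 3 (-2.12), and in a fit of only the populations compared (-2.41). The colon CD81+ call was lost without CD81+ FB replicate 1 (-2.12) or 3 (-2.30) or PDGFRahi FB replicate 1 (-2.42). Without SI PDGFRahi FB replicate 3 both SI calls held, at -3.24 and -2.90.

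In SI pericytes, Nbl1 stood at 50.4, 73.7 and 71.7 CPM, and in SI SMC at 45.0, 41.6 and 113 CPM. Both were low beside SI PDGFRahi FB and overlapped the lowest other SI FB library. The log2 fold change against SI FB was -1.90 in pericytes (SE 0.55, edgeR adjusted p = 0.0150), lost without pericyte replicate 1 (-1.77), and -1.88 in SMC (SE 0.55, adjusted p = 0.0359). The SMC call was lost without SMC replicate 1 (-1.66) or 2 (-1.63), CD34+ FB replicate 1 (-1.84) or 2 (-1.77), PDGFRahi FB replicate 1 (-1.85) or 2 (-1.72), or Fgfr2+ FB replicate 1 (-1.74), with length-scaled TPM counts (-1.85) and with a block for the replicate number (-1.67).

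Chrd encodes chordin, which binds BMP2, BMP4 and BMP7 and is cut by tolloid proteases. SI PDGFRahi FB had 112, 131 and 40.1 CPM, and colon PDGFRahi FB had 11.4, 25.4 and 18.6 CPM. SI Fgfr2+ FB had 2.58, 0.0902 and 3.46 CPM, whereas colon Fgfr2+ FB had 43.6, 25.0 and 26.3 CPM. In the SI the PDGFRahi libraries were high and the Fgfr2+ libraries near the floor, without overlap, and in the colon the gates overlapped. SI CD34+ FB had 12.7, 30.1 and 13.2 CPM, colon CD90+ FB averaged 14.0 ± 4.07 CPM, and colon CD81+ FB averaged 9.62 ± 2.07 CPM. The means were 7.37 ± 6.67 CPM in colon pericytes, 2.78 ± 3.35 CPM in SI pericytes and 2.08 ± 1.64 CPM in SI SMC. Every population overlapped its neighbor in the order.

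The SI Fgfr2+ FB were lower in Chrd than SI PDGFRahi FB by a log2 fold change of -5.59 (SE 1.12, edgeR adjusted p = 0.00291), a call kept in each alternative and with each library left out. Of the markers of other cells, Cxcl13, Notch3 and Rgs5 were called higher and Myh11, Acta2, Kcnj8 and Abcc9 lower in the same comparison, and their part in the Chrd result was not tested. The same comparison in the colon gave 0.78 (SE 0.91, adjusted p = 1). The tissue difference, SI over colon, was -4.01 in Fgfr2+ FB (SE 1.05, adjusted p = 0.0463) and 2.35 in PDGFRahi FB (SE 0.95, adjusted p = 0.524). These gates differ between the tissues, as given above, so tissue and gate cannot be told apart. The difference between these 2 tissue effects was tested as an interaction and was -6.36 (SE 1.41, adjusted p = 0.0264). It was 1 of 9 antagonists called there, against 0.66% of all genes, and it was not stable: the call was lost with length-scaled TPM counts (-5.88) and without colon Fgfr2+ FB replicate 1 (-6.06), colon PDGFRahi FB replicate 1 (-6.11), 2 (-6.66) or 3 (-6.37), SI PDGFRahi FB replicate 1 (-6.21) or 2 (-6.04), or SI Fgfr2+ FB replicate 1 (-6.68) or 2 (-5.75). The call between Fgfr2+ FB was lost without any 1 of its 6 libraries, at -4.54 to -3.40, with length-scaled TPM counts (-3.54), with a block for the replicate number (-4.05) and in a fit of only the populations compared (-3.95). SI PDGFRahi FB replicate 3, whose top transcript and Kit level stood apart, had the lowest Chrd of its group, and without it the interaction was called at -6.73 and the SI difference at -5.95. In SI pericytes and SI SMC, Chrd stood below SI FB by -2.42 (SE 0.88, adjusted p = 0.0525) and -2.86 (SE 0.91, adjusted p = 0.0575), not called by edgeR but called by DESeq2 and without the filter.

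The files split Chrd over 4 transcripts. The protein-coding transcript of 3275 bases held 63.3% of its counts in SI PDGFRahi FB, 60.7% in colon CD81+ FB and 17.5% in colon Fgfr2+ FB. A transcript labelled retained intron held 32.5%, 34.2% and 36.4% in the same populations. In colon Fgfr2+ FB, a transcript labelled nonsense mediated decay held 40.7%, and in SI Fgfr2+ FB a second protein-coding transcript, of 2417 bases, held 80.8% of only 48 counts.

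Chrdl1 encodes chordin-like 1, a BMP4 antagonist, and had its highest mean in SI pericytes. SI pericytes had 191, 159 and 72.0 CPM, and colon pericytes had 30.3, 49.4 and 53.8 CPM. Colon CD81+ FB had 47.5, 22.6 and 36.7 CPM, SI CD34+ FB had 16.3, 13.5 and 10.6 CPM, and SI SMC had 11.5, 3.66 and 21.6 CPM. SI pericytes were above every other population, and colon pericytes overlapped colon CD81+ FB. Colon CD90+, Fgfr2+ and PDGFRahi FB averaged 6.55 ± 0.709, 6.21 ± 1.65 and 3.07 ± 2.13 CPM and overlapped in turn. SI PDGFRahi FB had 0, 1.69 and 0.574 CPM, and the SI Fgfr2+ FB had 1 count in 3 libraries.

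Against SI FB, Chrdl1 was higher by a log2 fold change of 7.47 in pericytes (SE 0.64, edgeR adjusted p = 6.52e-10) and 3.95 in SMC (SE 0.62, adjusted p = 5.92e-05). These 2 values depend on the prior count, since 1 of the 3 SI FB populations had 1 count, and the SMC libraries overlapped those of SI CD34+ FB. SMC were lower than pericytes by -3.52 (SE 0.81, adjusted p = 0.00417), a call lost in a fit of only the populations compared (-3.50). Colon pericytes were above colon FB by 2.44 (SE 0.51, adjusted p = 0.000871). Between SI and colon pericytes the difference was 1.66 (SE 0.75, adjusted p = 0.172), without overlap and called by DESeq2 (1.74).

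Markers of other cells moved with pericytes too. In SI pericytes the summed immune level was highest in replicate 1, the library with the most Chrdl1, and 2 of 6 immune markers were called higher and 1 lower than in SI FB, with Cd68 the most abundant and 0 at 0 in all libraries. The summed level of 5 endothelial markers was 350, 196 and 173 CPM there, with Tek the most abundant, and 2 of 5 were called higher. Of 2 markers of interstitial cells of Cajal, Ano1 was 1093, 547 and 694 CPM and Kit was 0.429, 0 and 8.36 CPM. The summed level of 5 smooth muscle markers, with Myh11 the most abundant, was 4494.5, 2948 and 3180 CPM, also highest in replicate 1, and 5 of 5 were called higher than in SI FB, by 1.67 (Acta2) to 4.52 (Des). Krt20, 1 of 4 epithelial markers tested, and Tubb3, 1 of 3 glial and neuronal markers tested, were called higher at means of 0.421 and 0.861 CPM, and Cxcl13 was called lower. Their part in the Chrdl1 result was not tested, and without SI pericyte replicate 1 or any other 1 library the difference remained at least 7.17. In SI SMC against SI FB, Rgs5 (2.085) and Krt20 (7.36, 1.92 against 0 CPM) were called higher. Tek (-4.05), Abcc9 (-3.04) and Cxcl13 (-5.49) were called lower. The part of these markers in the SMC results of Chrdl1, Nbl1 and Nog was not tested.

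Within FB, Chrdl1 was called higher in the CD34+ gate than in SI PDGFRahi FB by 4.04 (SE 0.85, edgeR adjusted p = 0.00317) and in colon CD81+ FB than in colon PDGFRahi FB by 3.53 (SE 0.82, adjusted p = 0.00761). The colon call was lost without PDGFRahi FB replicate 1 (3.09). For the single count in SI Fgfr2+ FB a ratio of counts is given: SI CD34+ FB had 385-fold more (95% counting interval 68.7 to 15230, edgeR adjusted p = 0.000225), and colon Fgfr2+ FB had 175-fold more (interval 31.03 to 6954, adjusted p = 0.000532). SI PDGFRahi FB had 29.2-fold more (interval 4.91 to 1187), a call at adjusted p = 0.0496 with overlapping libraries. On the log2 scale that call, at -4.17, was lost under RLE size factors (-4.12), without the filter on low counts (-4.12), with length-scaled TPM counts (-4.11), with a block for the replicate number (-4.10), and without SI PDGFRahi FB replicate 2 (-2.76) or 3 (-4.34) or SI Fgfr2+ FB replicate 1 (-6.11), 2 (-3.61) or 3 (-4.04). Myh11, Acta2, Des and Kcnj8 were called lower in SI CD34+ FB than in SI Fgfr2+ FB. Between Fgfr2+ FB of the tissues, Myh11, Des and Rgs5 were called higher in the SI. Of the sorting markers, Fgfr2 was called higher there too, and Cd34, Thy1 and Igfbp5 were called lower. The part of these markers in the Chrdl1 results was not tested.

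Bmper encodes a secreted protein with von Willebrand factor type C domains that binds BMPs and chordin. Colon pericytes had 86.4, 32.8 and 3.74 CPM, SI SMC had 45.9, 20.6 and 38.1 CPM, and SI Fgfr2+ FB had 39.4, 40.4 and 12.4 CPM. These 3 populations overlapped, and the colon pericytes spread the widest. In colon CD90+ FB and colon Fgfr2+ FB the 3 libraries held 3 counts together in each. Colon CD81+ FB held 125 counts in replicate 1 and 0 in the others. SI PDGFRahi FB had 10.7, 0.113 and 0 CPM, SI CD34+ FB averaged 6.16 ± 3.69 CPM, SI pericytes 3.75 ± 4.299 CPM and colon PDGFRahi FB 2.48 ± 1.87 CPM. Neighbors in the order overlapped except at the steps from SI Fgfr2+ FB to SI CD34+ FB and from colon PDGFRahi FB to colon Fgfr2+ FB.

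Bmper was called higher in colon pericytes than in colon FB, by a fitted log2 fold change of 6.32 (SE 1.13, edgeR adjusted p = 0.000131) that depends on the prior count where the FB had few counts, and the call was kept with each library left out, at 5.15 without colon pericyte replicate 1 to 8.35 without colon CD81+ FB replicate 1. The libraries overlapped: colon pericyte replicate 3, at 3.74 CPM, was below colon CD81+ FB replicate 1 (9.75 CPM) and colon PDGFRahi FB replicate 3 (4.48 CPM). In these pericytes the summed level of 6 immune markers, with Cd68 the most abundant, was 95.7, 121 and 52.7 CPM, with 2 of 6 called higher than in colon FB and 1 at 0, and that of 5 smooth muscle markers, with 5 of 5 called higher, was 9918, 11185 and 10881 CPM. Ano1 was called higher there by 7.98 (723 against 20.5 CPM), with Kit at 0.042 CPM. Of 5 endothelial markers, which summed to 96.7, 58.1 and 75.2 CPM, Vwf was called higher (1.79) and Tek lower (-7.38). Of 4 epithelial markers tested Cdh1 was called higher (4.29), at 0, 12.1 and 0.0718 CPM, and Cxcl13 was called lower. Their part in the Bmper result was not tested. Pericytes of the SI gave -1.21 against SI FB (SE 1.39, adjusted p = 0.597). The Fgfr2+ gates of the tissues differ in sorting markers, so tissue and gate cannot be told apart. The tissues differed in Fgfr2+ FB by a ratio of counts of 357 in favor of the SI (95% counting interval 122 to 1735), with no overlap, but the edgeR adjusted p was 0.0651. DESeq2 called it, as did edgeR without the filter and with only the populations compared.

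Twsg1 encodes twisted gastrulation, which binds BMPs and chordin and can act for or against signaling. Colon PDGFRahi FB had 1649, 1691 and 2505 CPM, and SI PDGFRahi FB had 929, 907 and 1140.4 CPM. Both stood above every other population without overlap. The other FB had population means of 426 to 641 CPM, SI SMC 527 ± 89.5 CPM, colon pericytes 342 ± 127 CPM and SI pericytes 206 ± 5.61 CPM, and each overlapped its neighbor in the order.

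Twsg1 was lower than in colon PDGFRahi FB by a log2 fold change of -2.19 in CD81+ FB (SE 0.28, edgeR adjusted p = 6.87e-06), -1.84 in CD90+ FB (SE 0.28, adjusted p = 0.000130) and -1.79 in Fgfr2+ FB (SE 0.28, adjusted p = 0.000244). In the SI the differences from PDGFRahi FB were -0.63 for CD34+ FB (SE 0.27, adjusted p = 0.363) and -0.64 for Fgfr2+ FB (SE 0.27, adjusted p = 0.305). The interaction of tissue and subset, with Fgfr2+ and PDGFRahi FB, was 1.15 (SE 0.38, adjusted p = 0.280), so the larger colon difference was not shown to differ from that in the SI. SI pericytes were lower than SI FB by -1.85 (SE 0.25, adjusted p = 2.60e-06). These 4 calls were kept in each alternative and with each library left out. Colon pericytes were below colon FB by -1.05 (SE 0.23, adjusted p = 0.00138), under the fold threshold.

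Nog encodes noggin, which binds BMP2, BMP4 and BMP7. It was at or near 0 in most libraries: 21 of 30 held no count, and 5 populations held none in any library. SI SMC held 3, 153 and 0 counts, and no other library held more than the 20 counts of colon CD90+ FB replicate 3. The signal in SI SMC thus came from replicate 2. Against SI FB the fitted log2 fold change was 7.21 (SE 1.78, edgeR adjusted p = 0.0173), a value that depends on the prior count since 2 of the 3 SI FB populations held 0 counts. Without SMC replicate 2 it was 2.33 (adjusted p = 0.500, the highest of the 12 fits with a library left out), and neither DESeq2 (6.70) nor a block for the replicate number (7.21) gave a call. In SMC replicate 2 the summed level of 5 smooth muscle markers was 16820 CPM, against 20790 and 20514 CPM, and that of 5 glial and neuronal markers was 5.87 CPM, against 9.29 and 14.7 CPM; their part in the Nog result was not tested.

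Fst encodes follistatin, which binds activins with high affinity and some BMPs. Colon PDGFRahi FB had 16.5, 15.8 and 7.87 CPM, and colon CD81+ FB had 1.48, 13.8 and 4.50 CPM. SI CD34+ FB had 1.53, 1.22 and 0.537 CPM, and SI PDGFRahi FB had 0.804, 0.339 and 0.345 CPM. The colon PDGFRahi libraries were high, and the CD81+ libraries overlapped them through replicate 2. SI Fgfr2+ FB, SI SMC and SI pericytes had 0 counts in 3 of 3 libraries, colon pericytes and colon Fgfr2+ FB had 2 counts each and colon CD90+ FB 10 counts. Colon PDGFRahi FB had 196-fold more Fst than colon Fgfr2+ FB as a ratio of counts (95% counting interval 53.9 to 1628, edgeR adjusted p = 0.0340). This call was lost with a block for the replicate number (-7.17 on the log2 scale) and without colon Fgfr2+ FB replicate 1 (-6.81) or 2 (-6.79) or colon PDGFRahi FB replicate 1 (-7.15), 2 (-7.20) or 3 (-7.60). Colon CD90+ FB were below colon PDGFRahi FB by -6.02 (SE 1.62, adjusted p = 0.0676), not called, but called by DESeq2 (-6.15), with a stricter filter (-6.06), with only the populations compared (-6.09) and without CD90+ FB replicate 2 (-8.49).

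Fstl1 encodes follistatin-like 1, a secreted glycoprotein that binds BMP4, and per kilobase of transcript had the highest or second highest level of the 9 in every population. Colon CD81+ FB had 2366, 2232 and 2552 CPM, colon CD90+ FB 2295, 1768 and 1802 CPM, and colon Fgfr2+ FB 1265, 1358 and 2126 CPM. Colon PDGFRahi FB had 993, 782 and 1210.1 CPM, and SI PDGFRahi FB had 760.3, 712 and 741 CPM. SI CD34+ FB, SI Fgfr2+ FB and SI SMC averaged 1069.9 ± 182, 1002 ± 65.2 and 1126 ± 352 CPM. Libraries of neighboring populations overlapped from colon CD81+ FB down to colon PDGFRahi FB, and SI PDGFRahi FB lay below these. SI pericytes had 693, 322 and 433 CPM and colon pericytes 403, 602 and 348 CPM, overlapping each other and lying below every FB library.

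The only called comparison of 18 for Fstl1 was colon pericytes below colon FB, by a log2 fold change of -1.87 (SE 0.26, edgeR adjusted p = 2.52e-06). SI pericytes were lower than SI FB by -0.94 (SE 0.24, adjusted p = 0.00691), which passed the adjusted p but not the fold threshold. Colon CD81+ FB were above colon PDGFRahi FB by 1.26 (SE 0.29, adjusted p = 0.00661) and SI CD34+ FB were below colon CD81+ FB by -1.16 (SE 0.29, adjusted p = 0.0485), also under the fold threshold.

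The counts of called genes, of 9, stand here beside the share of all genes called in the same comparison. Against PDGFRahi FB they were 3 for SI CD34+ FB (3.22% of all genes), 4 for SI Fgfr2+ FB (2.52%), 4 for colon CD81+ FB (3.94%), 3 for colon CD90+ FB (1.42%) and 3 for colon Fgfr2+ FB (1.33%). SI CD34+ FB against SI Fgfr2+ FB gave 2 (1.21%). SI pericytes against SI FB gave 3 (16.6%), SI SMC against SI FB 3 (5.16%), SI SMC against SI pericytes 1 (10.2%) and colon pericytes against colon FB 4 (16%). Fgfr2+ FB of the SI against those of the colon gave 2 (1.45%). Nothing particular to the 9 genes is read from these counts, since the genes were chosen with earlier results known.

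In 6 comparisons edgeR called 0 of 9. Colon CD81+ against CD90+ FB (0.621% of all genes called) had 4 at an unadjusted p under 0.05 and 3 by DESeq2, and CD81+ against Fgfr2+ FB (0.939%) had 5 and 3. Colon CD90+ against Fgfr2+ FB had 1 and 0, and edgeR called 0% of all genes there, with 570 genes at an unadjusted p under 0.05 and 37 by DESeq2. PDGFRahi FB of the SI against the colon (0.957%) had 6 and 2, pericytes of the SI against the colon (5.69%) had 2 and 1, and SI CD34+ against colon CD81+ FB (0.757%) had 2 and 0. The shares in brackets are edgeR calls. Of all 17564 genes, those at an unadjusted p under 0.05 numbered 1640 for CD81+ against CD90+ FB and 1943 for CD81+ against Fgfr2+ FB. They numbered 1146 for PDGFRahi FB between tissues, 4236 for pericytes between tissues and 1672 for SI CD34+ against colon CD81+ FB. A count of 0 does not show that the levels were equal.

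Levels of different genes were compared per kilobase of effective transcript length (CPM per kb). The 9 genes summed to 1482 ± 73.7 CPM per kb in colon CD81+ FB, 1082 ± 164 in colon PDGFRahi FB and 1078 ± 302 in SI PDGFRahi FB. The sums were 936 ± 59.7 CPM per kb in SI CD34+ FB, 919 ± 23.3 in colon CD90+ FB, 817 ± 185 in colon Fgfr2+ FB, 716 ± 314 in SI SMC and 662 ± 68.5 in SI Fgfr2+ FB. They were lowest in pericytes, at 375 ± 72.1 CPM per kb in the SI and 357 ± 96.0 in the colon. The composition differed between populations: per kilobase, Fstl1 gave 53.9% and Grem1 33.9% in colon CD81+ FB, Twsg1 gave 46.9% and Fstl1 32.0% in colon PDGFRahi FB, and Nbl1 gave 49.0% and Fstl1 24.3% in SI PDGFRahi FB. SI SMC replicate 3, which stood apart, summed to 1077 CPM per kb against 559.6 and 510.1. SI PDGFRahi FB replicate 3, which also stood apart, summed to 751 CPM per kb against 1135 and 1347. Its Nbl1 was at 262 CPM against 933 and 1295 CPM, so the Nbl1 share there averages unlike libraries. In TPM rescaled to matched genes the SI SMC sum was 895 ± 142, below the SI Fgfr2+ FB sum of 1184 ± 127, whereas in CPM per kb it was above it. In the same unit the colon CD81+ FB sum was 2265 ± 242, closer to the 2120 ± 305 of colon PDGFRahi FB. The pericyte sums changed order, at 452 ± 112 in the SI and 529 ± 72.1 in the colon.

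**Figure D2:**
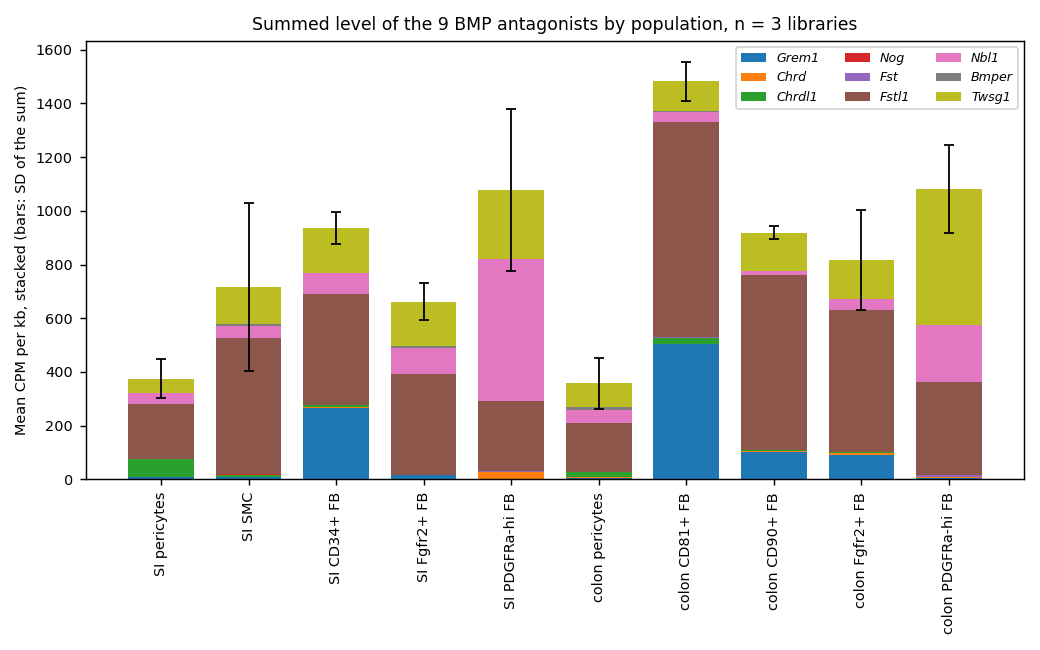
Summed level of the 9 antagonist genes in each population in CPM per kb, stacked by gene, with the SD of the sum over 3 libraries as the error bar. The bar is tallest in colon CD81+ FB (1482 CPM per kb), and the largest segment is Fstl1 there, Twsg1 in colon PDGFRahi FB and Nbl1 in SI PDGFRahi FB. The Nbl1 segment averages unlike libraries, with 933 and 1295 CPM in SI PDGFRahi FB replicates 1 and 2 and 262 CPM in replicate 3.

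BMP ligand genes were highest as a sum in PDGFRahi FB, where Grem1 was lowest, but in pericytes both were low. Nbl1 and Twsg1 were instead highest in PDGFRahi FB. The 9 antagonists summed to 1082 CPM per kb in colon PDGFRahi FB and 1078 in SI PDGFRahi FB. The summed level of 11 ligand genes, of which 8 were tested, was 2589 ± 77.1 CPM per kb in colon PDGFRahi FB and 1759 ± 171 in SI PDGFRahi FB, and 109 ± 50.4 and 78.9 ± 41.0 CPM per kb in colon and SI pericytes. Bmp5 fell by 4.53 on the log2 scale from SI PDGFRahi to SI CD34+ FB (adjusted p = 2.40e-07) and by 4.95 from colon PDGFRahi to CD81+ FB (adjusted p = 1.37e-07), both by edgeR. Bmp7 fell by 6.15 and 5.36 in these comparisons and Bmp3 fell by 6.003 and 4.06. Of the 8, 3 were called lower and 0 higher in SI CD34+ FB (3.22% of all genes called), and 4 lower and 1 higher (Gdf6) in colon CD81+ FB (3.94%). Bmp4 averaged 820 CPM in SI PDGFRahi FB and 994 to 2127 CPM in the other FB. In SI pericytes 6 of 8 ligands were lower than in SI FB and 0 higher (16.6% of all genes called), with Bmp4 falling by 5.16.

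Inhba, which encodes a subunit of activins, the ligands that follistatin binds, averaged 367 CPM in SI PDGFRahi FB and 351 CPM in colon PDGFRahi FB, and was called lower than these in SI CD34+ FB (-3.46), SI Fgfr2+ FB (-3.66) and colon CD81+ FB (-6.08, edgeR adjusted p = 0.000682). It was called higher in colon pericytes than in colon FB by 2.46 (edgeR adjusted p = 0.00529, 215 against 107 CPM), with overlapping libraries. Inha was called lower there (-6.31). Inhbb was called lower in SI CD34+ than in SI PDGFRahi FB (-8.64) and in SI pericytes than in SI FB (-6.07). Between tissues, Inhbb was called higher in the SI in PDGFRahi (7.32) and Fgfr2+ FB (7.89). The Inha value and the last Inhbb value depend on the prior count, since a group in each averaged 0 CPM. Of the 3 chordin proteases, Tll2 was called lower in SI CD34+ and SI Fgfr2+ FB than in SI PDGFRahi FB, by -9.25 and -7.95, and in colon CD81+ and colon Fgfr2+ FB than in colon PDGFRahi FB, by -5.80 and -7.46. These values depend on the prior count. Tll2 was also called lower in SI pericytes, which averaged 0 CPM, than in SI FB (-6.16). Bmp1 was higher in colon CD81+ FB than in colon PDGFRahi FB by 1.82 (SE 0.45), and was called lower in colon pericytes than in colon FB (-2.23). Of 4 SMAD genes of the BMP branch, Smad1 was called higher in SI Fgfr2+ FB (2.29) and colon CD81+ FB (2.75) than in PDGFRahi FB, while in colon pericytes Smad9 (-4.85, edgeR adjusted p = 0.000292) and Smad4 (-2.08, adjusted p = 0.00169) were called lower than in colon FB, and Smad4 was lower than in SI pericytes. Of 4 co-receptor genes tested, Tgfbr3 was higher than in colon PDGFRahi FB in CD81+, CD90+ and Fgfr2+ FB (2.80, 2.06 and 1.77). Rgmb was called lower in pericytes than in FB in the SI (-4.32) and the colon (-5.05). Eng was called lower in SI SMC than in SI pericytes (-2.63).

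Of 7 BMP receptor genes, Bmpr1b alone was called, in 2 comparisons, and 0 were called in the other 16. Bmpr1b was called higher in SI CD34+ FB than in SI PDGFRahi FB by 7.36 (6.18 against 0.0188 CPM, 3.22% of all genes called), a value that depends on the prior count. It was also called higher in SI SMC than in SI FB by 5.35 (30.1 against 2.69 CPM, 5.16% of all genes called). Over all comparisons the share of all genes called ran from 0% to 16.6%. Of the 9 BMP target genes, 4 were called higher and 0 lower in SI pericytes than in SI FB (16.6% of all genes called), and 4 higher and 1 lower in colon pericytes than in colon FB (16%). Id1 was higher by 3.48 (SE 0.78) in the SI and 4.37 (SE 0.69) in the colon, and Id3 by 1.72 (SE 0.39) and 2.32 (SE 0.36), and Smad7 by 2.15 and 2.201. In the colon Smad6, itself an inhibitory SMAD, was lower by -2.89. Against PDGFRahi FB, SI CD34+ FB had 1 target higher, Id4, and 1 lower, Id1 (13.3 to 0.168 CPM).

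Among other antagonist genes, Crim1, which encodes a membrane protein that binds BMPs, was called lower in SI CD34+ FB than in SI PDGFRahi FB, by -2.82 (SE 0.40, edgeR adjusted p = 2.15e-05). In SI pericytes Crim1 was called higher than in SI FB by 2.00 (SE 0.28) and Fstl3, a relative of follistatin, by 1.99 (SE 0.48).

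Patterns over the 10 population means, with n = 10 points that share libraries, were described by Pearson's r of log2 CPM without a test. Among the 9 genes, Grem1 and Fstl1 had r = 0.727, Nbl1 and Twsg1 had r = 0.670, and the lowest values were r = -0.715 for Chrdl1 and Twsg1, r = -0.688 for Chrd and Bmper and r = -0.646 for Grem1 and Nbl1. Among 12582 genes, those most like Grem1 were Igsf8 (r = 0.973), Eln (0.958) and Nlgn1 (0.956), all highest in colon CD81+ FB. Those most like Nbl1 were Hrh1 (0.950), Ogdhl (0.946) and Plcg2 (0.945), those most like Twsg1 were Tpm4 (0.930), Cplx2 (0.929) and Hsd17b11 (0.919), and those most like Fstl1 were Dynlt3 (0.985), Fgf2 (0.959) and Aida (0.957). For Chrdl1 they were Atp10d (0.953), Slc23a4 (0.946) and Urod (0.942). Over the 30 libraries r was lower for the genes named here, from 0.501 (Hsd17b11) to 0.914 (Nlgn1).

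The promoter sequences of Grem1 and Nbl1 are shown because both are of the DAN family and PDGFRahi FB held the lowest Grem1 and the highest Nbl1 among the FB of each tissue. RefSeq promoters of build GRCm38.p6 matched 6 of the 9 genes. In the 250 bases upstream, GGCGCC (a GC box bound by BMP SMADs) was searched on both strands and was present in 9.59% of 32851 promoters. The box TATAAA was present in 12.4% and the E-box CAGCTG in 13%. GGCGCC was found once in each of Grem1, Chrd and Nbl1 and in none of Fstl1, Bmper and Twsg1; the other 2 motifs were found in none of the 6. Below, the capitals mark GGCGCC, and the sequences, from chr2:113758649-113758898 and chr4:139092971-139093220, both on the minus strand, run 5′ to 3′.
Grem1: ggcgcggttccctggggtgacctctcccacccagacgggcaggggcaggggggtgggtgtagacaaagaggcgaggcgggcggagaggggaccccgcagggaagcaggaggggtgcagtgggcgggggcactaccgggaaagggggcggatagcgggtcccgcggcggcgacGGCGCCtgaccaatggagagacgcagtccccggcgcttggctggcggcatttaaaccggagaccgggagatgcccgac
Nbl1: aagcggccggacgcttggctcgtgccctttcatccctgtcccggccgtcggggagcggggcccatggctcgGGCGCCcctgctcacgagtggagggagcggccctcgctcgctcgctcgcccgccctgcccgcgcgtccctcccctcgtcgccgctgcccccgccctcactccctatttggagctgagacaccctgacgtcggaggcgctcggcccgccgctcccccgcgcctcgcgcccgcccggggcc
A match describes letters and not a bound site. The GC contents were 72% and 77.6%.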

How the data were processed

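The authors sorted the cells, amplified RNA and sequenced 50-base single reads, which they trimmed with Trim Galore 0.4.0, checked with FastQC 0.11.2 and pseudo-aligned with kallisto 0.42.5. The deposited files give, per transcript, an estimated count (expected counts, not normalized), a TPM and an effective length in bases. The transcript set is not stated; 97204 of 98492 transcripts matched a gene symbol, which held 97.8 to 99.2% of counts. Estimated counts were summed to genes, rounded and fitted with edgeR 4.0.16 (R 4.3.3) as described in the report, with TMM scaling and no block. Comparisons of pooled FB used the mean of the population log2 levels. CPM per kb divided CPM by the effective length in each library. Alternatives were DESeq2 1.42.0, RLE size factors, no filter and a stricter filter (10 counts), length-scaled TPM counts, rescaled TPM, only the populations compared, the replicate number as a block, and each library left out. Likeness used genes with a population mean of at least 10 CPM. Named genes were the 9 antagonists and members of listed pathway and marker sets. The members and lists were chosen with earlier results of these data known.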

Additional observations from a re-analysis of the deposited data

Results flagged for a closer look

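The tissue difference of Chrd, small intestine over colon, in Fgfr2+ FB minus that in PDGFRahi FB was -6.36 on the log2 scale (SE 1.41, edgeR adjusted p = 0.0264). It is singled out because the tissue effects of the 2 gates differed in a test of the difference itself. Among markers of other cells, Ano1 (6.66), Cxcl13 (4.97) and Abcc9 (-3.75) were also called in this interaction. So were the sorting markers Cd34 (-4.32), Fgfr2 (3.35), Igfbp5 (-2.94) and Pdgfra (-1.63). The sorting gates differ between the tissues, so tissue and gate cannot be told apart. The part of all these markers in the Chrd result was not tested. The call was lost with length-scaled TPM counts (-5.88) and in 8 of 12 fits with a library left out, where values ran from -6.89 to -5.75. Counts were summed over all Chrd transcripts. In colon Fgfr2+ FB, 36.4% of them fell on a transcript labelled retained intron and 40.7% on one labelled nonsense mediated decay. In SI PDGFRahi FB these shares were 32.5% and 4.24%.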

How the results depend on the processing

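No called difference of the 9 genes reversed; 21 of 33 calls were kept in each alternative and with each library left out, and 12 were lost in at least 1. Of 9 genes, DESeq2 called 3 for colon CD81+ against CD90+ FB, 3 for CD81+ against Fgfr2+ FB, 2 for PDGFRahi FB between tissues, 4 for Fgfr2+ FB between tissues, 1 for pericytes between tissues and 2 for the interaction. Without the filter these were 1, 1, 1 and 4 for the first 4. A fit of only the populations compared called 2 for SI Fgfr2+ against PDGFRahi FB, 1 for CD81+ against Fgfr2+ FB, 0 for SI SMC against pericytes and 2 for PDGFRahi FB between tissues. Length-scaled TPM counts called 1 for Fgfr2+ FB between tissues and 0 for the interaction, and a replicate block called 1 for SI SMC against FB and 1 for Fgfr2+ FB between tissues. With 1 library left out the counts ran from 2 to 3 for SI Fgfr2+ against PDGFRahi FB, 2 to 4 for colon CD81+ against PDGFRahi FB, 1 to 4 for SI SMC against FB, 1 to 2 for SI SMC against pericytes and 0 to 1 for the interaction. The number of all genes called also moved, in 14 tests under DESeq2 and 11 with only the populations compared. It moved in 3 without the filter, 1 with length-scaled TPM counts and 0 with the replicate block. Nothing particular to the 9 genes is read from their counts. RLE size factors moved the median of all genes by at most 0.0857. Nog had no value under the stricter filter, and Nog, Fst, Bmper or Chrdl1 had none in some fits of only the populations compared. Libraries of the same replicate number in different populations had a mean correlation of residuals of 0.00975 (lowest -0.114, highest 0.136), and 19 of 30 libraries were closest to their own number, of 3 numbers to be closest to.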
